A study of Mus musculus with 2 samples.

Results

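The peaks described here are the IRF4 peaks that hold a binding site of the NF-kB family close to their summit. They were found by sequence alone: a peak counted where, on either strand and within 50 bp of its summit, 3 guanines were followed by a purine, 2 free bases, 2 pyrimidines and 2 cytosines. Of 27671 peaks on the mouse build mm9, 1942 held such a site, which is 7.02% (95% Wilson interval 6.72 to 7.33). Every peak lay on chromosomes 1 to 19 or X, and no peak had an unknown base in the searched window. The other 25729 peaks serve as the comparison. At the edge of the rule, 373 peaks qualified only through a site reaching into the last 10 bp of the window, with a median signal of 73.3, while 312 peaks had their nearest site only in the 10 bp beyond it, with a median of 74.1.

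The series holds ChIP-seq of IRF4, in which DNA bound by a protein is pulled down with an antibody and sequenced, from CH12.LX, an immortalized B-cell lymphoma line from a mouse of strain B10.H-2aH-4bp/Wts. The samples form 1 group of 2 biological replicates, which the labels do not describe as separate cultures, and the labels name no treatment, mutant allele or comparison line. The mm9 list was made from both replicates together, so each of its peaks carries 1 signal value, set by the depositors' caller on a scale that the sources used here do not state. Read numbers were not given either, so depth is unknown, all intervals cover counting error over peaks or genes only, and peaks are not independent replicates of a condition. The B-cell marker genes Cd79a, Cd79b, Ms4a1, Pax5 and Cd22 each had an IRF4 peak within 10 kb of a start, and of these Cd79a had a peak with the site. Among 4 T-cell markers, 3 had a peak and 0 had one with the site. Over all protein-coding genes, 37.9% had a peak and 11.6% of those had one with the site. These few markers do not test the identity of the line. A ChIP peak beside a gene does not measure its expression.

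NF-kB is a family of dimeric transcription factors built from the Rel proteins, which are held inactive in the cytoplasm by IkB inhibitors and released when receptors such as CD40, the B-cell receptor or Toll-like receptors signal. In B cells the released dimers act on genes of survival, cytokines, antigen presentation and on the genes of their own subunits and inhibitors. IRF4 is an interferon regulatory factor of B cells and plasma cells that binds DNA weakly alone and well beside a partner: the ETS factors PU.1 and SPIB on composite elements called EICE, and AP-1 factors with BATF on composite elements called AICE. A site in the sequence does not show that an NF-kB protein was bound, since only IRF4 was immunoprecipitated.

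The commonest spellings are printed first, at 7.05%, 4.99% and 4.58% of peaks with the site, and the last 2 show the range of forms. They read 5′ to 3′ in capitals.
Most frequent spelling: GGGACTTTCC
Second in frequency: GGGGCTTTCC
Next again in frequency: GGGGATTTCC
Fits on both strands: GGGAAATCCC
All inner bases A or T: GGGAATTTCC

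The following mm9 windows reach 50 bp to each side of the summit and are turned so that the site, in capitals, reads from its guanines to its cytosines. They show the site in a known immunoglobulin enhancer, in the strongest peaks and in promoters of genes of immunity. The strand given is that of the site, and is a convention where the site fits on both strands. The Tnfaip3 window lies in an intron, 547 bp from 1 of the gene's transcript starts.
Igkc intronic enhancer, chr6:70675703-70675803, plus strand: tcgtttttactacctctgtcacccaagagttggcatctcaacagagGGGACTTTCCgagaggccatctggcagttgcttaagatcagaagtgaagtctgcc
Hivep3 intron, chr4:119457767-119457867, minus strand: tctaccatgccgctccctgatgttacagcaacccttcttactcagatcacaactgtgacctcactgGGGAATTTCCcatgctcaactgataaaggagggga
Spns3 intron, chr11:72351747-72351847, minus strand: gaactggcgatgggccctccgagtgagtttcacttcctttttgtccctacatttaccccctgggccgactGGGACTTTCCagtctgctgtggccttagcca
Wfdc15b neighbourhood, chr2:164036748-164036848, minus strand: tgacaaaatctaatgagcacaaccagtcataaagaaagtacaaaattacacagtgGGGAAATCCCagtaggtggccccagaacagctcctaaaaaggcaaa
Cd40 promoter, chr2:164880675-164880775, plus strand: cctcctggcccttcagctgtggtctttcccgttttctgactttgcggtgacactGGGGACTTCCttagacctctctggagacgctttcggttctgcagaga
Cxcl10 promoter, chr5:92778011-92778111, minus strand: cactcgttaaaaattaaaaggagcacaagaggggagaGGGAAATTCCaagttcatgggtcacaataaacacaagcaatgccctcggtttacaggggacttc
B2m promoter, chr2:121973275-121973375, minus strand: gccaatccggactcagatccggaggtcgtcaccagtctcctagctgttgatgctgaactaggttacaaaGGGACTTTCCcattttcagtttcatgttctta
H2-K1 promoter, chr17:34137312-34137412, minus strand: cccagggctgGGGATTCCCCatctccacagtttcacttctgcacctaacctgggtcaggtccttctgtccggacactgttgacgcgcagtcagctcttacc
Tnfaip3 promoter, chr10:18729148-18729248, minus strand: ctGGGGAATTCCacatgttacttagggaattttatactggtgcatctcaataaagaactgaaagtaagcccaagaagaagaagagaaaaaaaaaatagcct

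The site was concentrated at the summits. It was present in 7.02% of summit windows, against 1.86% (1.71 to 2.03) of windows of the same length centred 300 bp to the right, a ratio of 3.76. In 1893 peaks only the summit window held it, against 467 with only the neighbouring window (exact McNemar test, two-sided, p = 1.5e-202). This excess at IRF4 summits was already known from these data, and it is given as the base for the forms of the site. Within the window the site was spread out: its centre lay a median of 22.5 bp from the summit in the 1942 peaks, against 24.5 bp from the centre in the 516 neighbouring windows with a site. The centre was within 10 bp of the summit in 22.3% of the peaks, against 20.2% of those neighbouring windows. Separate sites that share no base were rare: 70 peaks (3.6%) had 2 or more, against 3 neighbouring windows (0.581% of those with a site).

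The ratio of summit windows to neighbouring windows ran from 2.34 to 7.39 between sites of different A/T content, and was highest where the inner bases were all A or T; these classes were not tested against each other. Sites were classed by how many of the 5 inner bases, meaning the purine, the free bases and the pyrimidines, were A or T. With all 5 inner bases A or T, 133 summit windows held a site, against 18 neighbouring windows, a ratio of 7.39. With 4 the ratio was 5.44 (631 against 116 windows), with 3 it was 4.24 (699 against 165), with 2 it was 2.34 (353 against 151) and with 1 it was 2.36 (144 against 61). The class with no A or T was small, with 25 summit windows against 6 neighbouring ones, a ratio of 4.17. Each class was above its neighbouring windows (exact McNemar tests, largest adjusted p = 8.8e-04 over 13 classes of site, Benjamini-Hochberg).

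**Figure D1:**
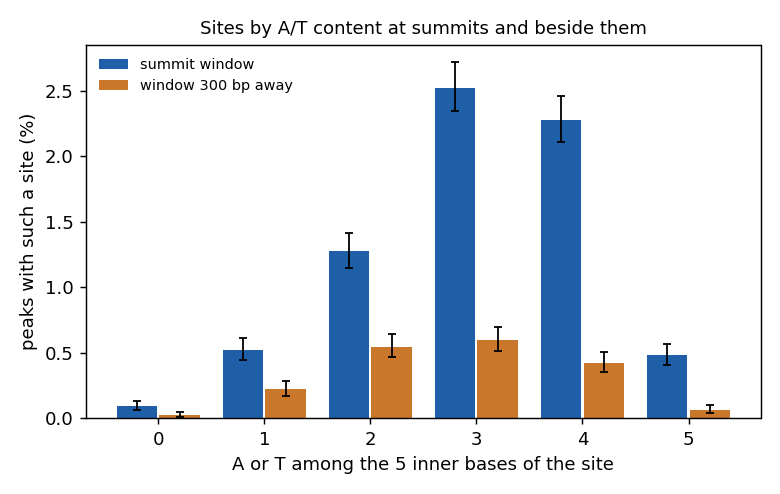
Percent of the 27671 peaks with an NF-kB site (vertical axis) by the number of A or T bases among the 5 inner bases of the site (horizontal axis), for the summit window (left bar of each pair) and the window 300 bp away (right bar); error bars are 95% Wilson intervals. The summit bars are highest at 3 inner A or T bases, at 2.53%, and exceed the neighbouring bars in every class, from 2.34 to 7.39 times.

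The core GGAA, which ETS factors also recognise, separated the forms further. Sites with GGAA inside were found in 1451 summit windows, against 261 neighbouring windows, a ratio of 5.56, and sites without it in 513 summit windows, against 255, a ratio of 2.01. Of the 1942 peaks, 74.3% (72.3 to 76.2) had GGAA in the site nearest the summit, against 50.6% (46.3 to 54.9) of the neighbouring windows with a site (odds ratio 2.83, 2.31 to 3.45, Fisher's exact test, p = 7.1e-24; this test was chosen after the ratios were seen). Where the site was overlapped by TGGGAA, the core bound by Ikaros, the ratio was 7.19 (309 against 43 windows), and where it was not the ratio was 3.48. With A or T at both free bases it was 6.57. By the purine, the ratio was 4.03 for adenine and 4.2 for guanine. At the first free base the summit sites had adenine in 46.6%, against 29.5% in neighbouring windows, and at the second they had thymine in 41.5%, against 26.7%. A site that fits on both strands was read as its alphabetically first spelling, which favours adenine at the purine and the first free base. Such sites, with cytosine as the second pyrimidine, were 35.8% at summits, against 28.5% in neighbouring windows. The base shares and the ratios by purine thus follow this convention in part.

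The 1942 sites used 97 spellings. The 10 commonest held 807 peaks, or 41.6%, against 16.1% of the neighbouring windows with a site; since these 10 were picked from the summit counts, this is a description. GGGACTTTCC led with 137 peaks, against 16 neighbouring windows, and was at promoters in 13.1% of its peaks. GGGGATTTCC had 89 peaks, against 4 neighbouring windows. Median signal was 65.9 in the 69 peaks with GGGGAATTCC, 75.4 in the 89 with GGGGATTTCC and 84.2 in the 80 with GGGAAACCCC, while within each of them values ran from 41.9 to at least 572.

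Signal in the peaks with a site spanned nearly the range of the list. It ran from 41.5 to 1348 with a median of 72.3 in the peaks with the site, against 41.5 to 1743 with a median of 69.8 in the other peaks. The middle part of the distribution, from the lower to the upper quartile, was 53.3 to 112 in the peaks with the site, against 51.5 to 117 in the other peaks. The strongest quartile of the list held 23.7% (21.9 to 25.7) of the peaks with the site, against 25.1% of the other peaks, a difference that did not pass the test (odds ratio 0.929, 0.834 to 1.04, Fisher's exact test on both sides, p = 0.192). Across quartiles of signal from weakest to strongest, the site was present in 6.29%, 7.0%, 8.12% and 6.66% of peaks, while neighbouring windows had it in 1.84%, 1.81%, 1.91% and 1.91%. The highest share was thus in the third quartile, with signals of 70.1 to 117. Of the 100 strongest peaks of the list, 4 held the site, and of the 1000 strongest, 63 did, against 7.02% of all peaks.

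Promoter peaks and the others differed in this respect. Among peaks within 1 kb of a protein-coding transcript start, 19.9% (15.9 to 24.5) of the 327 with a site were in the strongest quartile of the list, against 14.2% (13.2 to 15.3) of the 4515 without (odds ratio 1.5, 1.13 to 1.99, Fisher's exact test, p = 0.00726). Farther from starts it was 24.5% of 1615, against 27.4% of 21214 (odds ratio 0.860, 0.765 to 0.967, Fisher's exact test, p = 0.0116). The odds ratio at promoters was 1.74 times that elsewhere (95% interval of this ratio 1.28 to 2.37). This split was made after the signals had been seen. Stratified by the GC content of the window, in 10 classes of equal size, the odds ratio was 1.84 (1.37 to 2.48) at promoters and 0.968 (0.860 to 1.09) elsewhere, the second interval including equal odds.

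**Figure D2:**
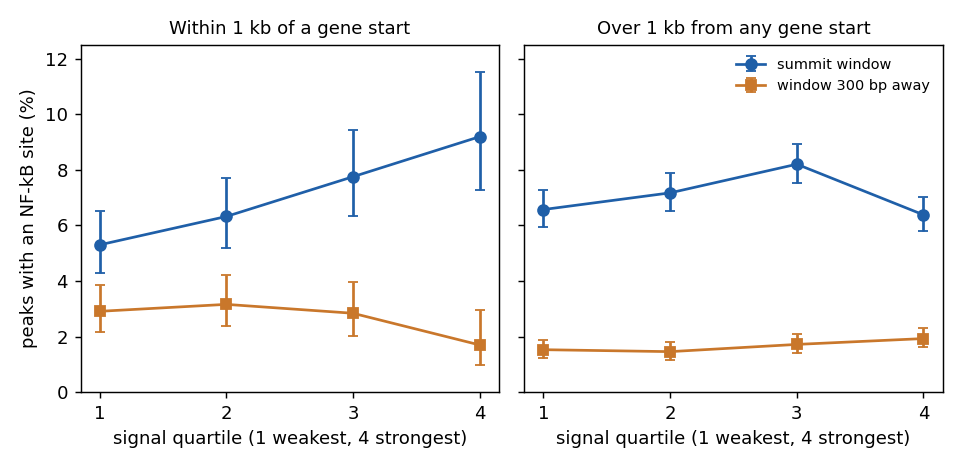
Percent of peaks with an NF-kB site (vertical axis) in the summit window and in the window 300 bp away, by quartile of peak signal (horizontal axis), for peaks within 1 kb of a protein-coding gene start (left) and all others (right); error bars are 95% Wilson intervals. At promoters the summit share was 5.30% in the weakest and 9.19% in the strongest quartile, while elsewhere it was highest in the third quartile at 8.20%.

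By location, no class passed an unstratified test between the peaks with a site and the others. At promoters lay 327 peaks, or 16.8% (15.2 to 18.6), against 4515 or 17.5% of the other peaks (odds ratio 0.951, 0.841 to 1.08, Fisher's exact test, p = 0.439); over all peaks the share was 17.5%. Introns held 40.7% against 38.1%, intergenic sequence 40.2% against 41.6%, untranslated regions 1.18% against 1.31% and coding exons 0.824% against 1.07%. None of these 5 classes passed the unstratified test, the lowest adjusted p being 0.138 for introns (Fisher's exact test, Benjamini-Hochberg), where the unadjusted p was 0.0276. The median distance to a protein-coding start was 13448 bp, against 13418 bp. The windows with a site were richer in GC, with a median of 52.5% against 48.5%, and the site itself holds guanines and cytosines by its definition. Stratified by window GC, the odds ratio at promoters was 0.641 (0.556 to 0.738, the interval excluding equal odds), and stratified by GC of the neighbouring window it was 0.878 (0.770 to 1.00). Introns also passed when stratified by window GC, with an odds ratio of 1.24 (1.13 to 1.37).

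The ratio to neighbouring sequence was lower at promoters, a difference that was not itself tested. There the site was present in 6.75% of summit windows, against 2.79% of neighbouring windows, a ratio of 2.42; in peaks farther from starts it was in 7.07%, against 1.67%, a ratio of 4.24. The form of the site also went with location. Of peaks with GGAA in the site, 13.9% (12.2 to 15.7) were at promoters, against 25.5% (21.8 to 29.5) of those without it (odds ratio 0.471, 0.367 to 0.606, Fisher's exact test, adjusted p = 1.1e-07 over 12 such comparisons, chosen after the forms were seen). Of peaks with A or T at both free bases, 11.9% were at promoters, against 20% of those without (odds ratio 0.538, Fisher's exact test, adjusted p = 1.7e-05). As a description, 21 of the 43 peaks with CG inside the site were at promoters, or 48.8%, against 16.1% of the 1899 without. None of the 4 forms compared passed the adjusted test for the strongest quartile; the lowest unadjusted p was 0.0428 (Fisher's exact test), for A or T at both free bases.

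Elements that IRF4 is known to bind were scarcer in the peaks with an NF-kB site. For this comparison 13 motifs were searched on both strands of the same windows, and matches that shared a base with the NF-kB site were left out, so that less sequence was open to them in the peaks with a site. EICE, GGAANNGAAA, was present in 62 peaks or 3.19% (2.50 to 4.07), against 9.08% of the other peaks (odds ratio 0.330, 0.256 to 0.427, Fisher's exact test, adjusted p = 3.4e-22). The AICE form in which the IRF and AP-1 parts adjoin was in 0.360%, against 1.04%, and the gapped AICE, with 4 bases between the parts, in 0.360%, against 0.964%. Paired IRF sites, GAAANNGAAA, were in 2.99%, against 5.99% (odds ratio 0.483, Fisher's exact test, adjusted p = 1.7e-08). AP-1 sites, TGACTCA or TGAGTCA, were in 9.42%, against 14.3% (odds ratio 0.625, 0.535 to 0.731, Fisher's exact test, adjusted p = 3.6e-09), and the PU.1 site GAGGAAGT in 3.14%, against 5.04% (odds ratio 0.611). These motifs overlap: an AICE match holds an AP-1 match, and GGAA is part of EICE and of the PU.1 site.

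Ikaros cores, TGGGAA, outside the site were in 7.16%, against 8.65% (Fisher's exact test, adjusted p = 0.0427), and this reversed when matches that overlap the site were counted, with an odds ratio of 2.87 (2.55 to 3.23), since TGGGAA can run into the site. EBF1 sites, TCCCNNGGGA, were in 0.978%, against 1.05%, and the odds ratio turned to 2.33 with overlapping matches counted. The promoter ETS site CCGGAAG (2.11% against 2.69%), the octamer ATGCAAAT (1.91% against 2.66%), RUNX TGTGGTT (5.15% against 5.84%), the E-box CAGCTG (7.98% against 8.70%) and the SP/KLF site GGGGCGGGG (0.618% against 0.987%) did not pass the test. In all, 7 of the 13 passed, each with a lower share in the peaks with an NF-kB site. Stratified by window GC the gapped AICE no longer passed (odds ratio 0.488, 0.229 to 1.04). The promoter ETS site (0.569, 0.413 to 0.783), the E-box (0.783, 0.659 to 0.929) and the SP/KLF site (0.447, 0.250 to 0.800) then passed, each again with lower odds in the peaks with an NF-kB site, and with windows of 100 bp to each side Ikaros no longer did (0.984, 0.890 to 1.09).

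**Figure D3:**
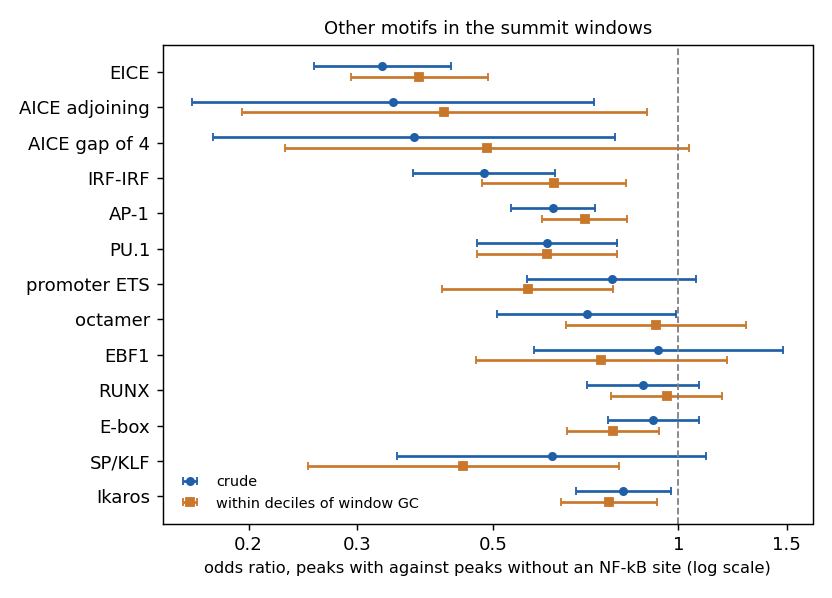
Odds ratio (horizontal log axis) for each of 13 motifs (vertical axis) in the summit windows of peaks with an NF-kB site against peaks without, with 95% intervals; circles are crude values and squares are stratified by window GC, and the dashed line marks equal odds. EICE lies lowest, at 0.330 crude and 0.379 stratified, and all 13 crude values lie below 1.

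Counted together, an IRF element (EICE, either AICE form or a paired IRF site) was in 133 peaks with the NF-kB site, or 6.85% (5.81 to 8.06), against 16.4% of the other peaks (odds ratio 0.376, 0.314 to 0.450, Fisher's exact test, p = 5.1e-34). An IRF element, AP-1 or PU.1 site was found in 17.8% of the peaks with the NF-kB site, against 31.3% of the other peaks. None of them was found in 1597 of the 1942 peaks with the NF-kB site, and most other peaks had none either. Signal moved with these elements in both sets. Its median was 108 in the peaks with both a site and an IRF element and 70.5 in those with a site alone, against 93.5 in other peaks with an IRF element and 67.0 in those with neither.

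All of the 10 strongest peaks with a site lay over 1 kb from any protein-coding start, between genes or in introns. The peak of highest signal, 1348, lay between genes 21736 bp from a start of Gpr15, a chemoattractant receptor, with the site 44.5 bp from the summit and an AICE match with a gap in the same window. An intronic peak of Hivep3, a zinc finger protein that binds kB-like sequence, had signal 895, 23967 bp from a start. Apart from an Ikaros core that shares bases with the site, its window held none of the 13 motifs. An intergenic peak near Onecut2, a homeobox transcription factor (869.9), and a peak in an intron of Spns3, a member of the spinster transporter family (807), each had an EICE match beside the site. The peak near Arhgef37, a guanine nucleotide exchange factor (747), had an AP-1 match. Wfdc15b, a small WAP-domain protein gene, was nearest to a peak of 731 whose site lay 9.50 bp from the summit.

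The rest of the 10 strongest ranged from 660.3 to 706. A peak in an intron of Zbtb20, a zinc finger repressor of B-lineage and plasma cells, had signal 706 with a gapped AICE match. Hmgb1, a chromatin protein, was nearest to a peak of 688 at 45663 bp, and 2010300C02Rik to a peak of 661. The peak of 660.3 was 47626 bp from a start of Iglc2, a constant segment of the lambda light chain. Distances of this size do not tie a peak to a gene.

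At promoters the strongest peaks with a site belonged to Zfp91, a zinc finger ubiquitin ligase linked to the non-canonical NF-kB pathway (559.5), Trim7, a ubiquitin ligase (516), and the class I histocompatibility genes H2-Q4 (495) and H2-D1 (468). Slc25a45, a mitochondrial carrier, had 464, Pxn, which encodes the adhesion protein paxillin, 392, Cd74, the invariant chain of class II antigen presentation, 381, and Snx11, a sorting nexin, 372. In Cd74 the site centre lay 0.5 bp from the summit, in a window that also holds EICE. H2-Q4, H2-D1 and H2-K1 are close copies of each other, and reads could be shared between them, so their values are uncertain.

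The mm10 lists gave these promoters a value in each replicate, as the strongest peak within 1 kb of the gene start; these starts are 1 per gene while all transcript starts were used on mm9, so for summits not also placed by sequence it is not known whether the peak is the same. Zfp91 had 128 and 163 in replicates 1 and 2, Slc25a45 had 93.4 and 144, H2-Q4 had 96.7 and 122, H2-D1 had 83.4 and 88.5, and Cd74 had 118 and 111. Trim7, Pxn and Snx11 were low by comparison. Trim7 had 9.98 and 8.05, Pxn had 15.7 and 18.3, and Snx11 had 14.2 and 29.4, and only Trim7 among the 8 had no peak of the conservative list there. The scales are not stated and the inputs differ between the mm9 and mm10 lists, so values are not compared between them.

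Over genes, 342 with a promoter peak holding the site could be matched to a GRCm38 start. A peak of the conservative mm10 list lay within 1 kb of the start in 78.7% (74.0 to 82.7) of them, against 71.4% (70.0 to 72.8) of 4109 genes whose mm9 promoter peaks hold no site (odds ratio 1.47, 1.13 to 1.93, Fisher's exact test, p = 0.00391); over both sets it was 72.0%. Signal on mm9 moved with the site here, with a median of 68.9 in promoter peaks with it, against 60.5 in those without, and its part in the result was not tested. Genes that share a promoter peak were each counted, with 345 genes for the 327 promoter peaks with a site. The test took such genes as independent, which they are not. The matching was changed after a first result had been seen. Matching by symbol alone to a smaller promoter table had covered 3242 genes and gave 88.5% of 252, against 78.8% of 2990 (odds ratio 2.07, 1.39 to 3.08, Fisher's exact test, p = 1.2e-04). With 500 bp in place of 1 kb the odds ratio was 1.31 (0.983 to 1.73, Fisher's exact test, p = 0.0723).

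By exact sequence match of the 41 bases around the summit, 107 peaks with the site could be placed on GRCm38 promoters, and 93 of them had a peak in both replicates within 100 bp. Some of the placed peaks lay over 1 kb from any protein-coding start on mm9, such as the peak of 328 near Icosl, 23518 bp away. Replicate 1 values ran from 4.97 to 121 with a median of 26.6, and replicate 2 values from 17.2 to 132 with a median of 39.1. Replicate 2 was higher in 85 of the 93, against 1295 of 1490 other placed peaks, and the median log2 ratio of replicate 2 to replicate 1 was 0.55 (SD 0.53), against 0.63 (SD 0.67). The caller's scale per replicate is not stated, and the part of depth in this difference was not tested.

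**Figure D4:**
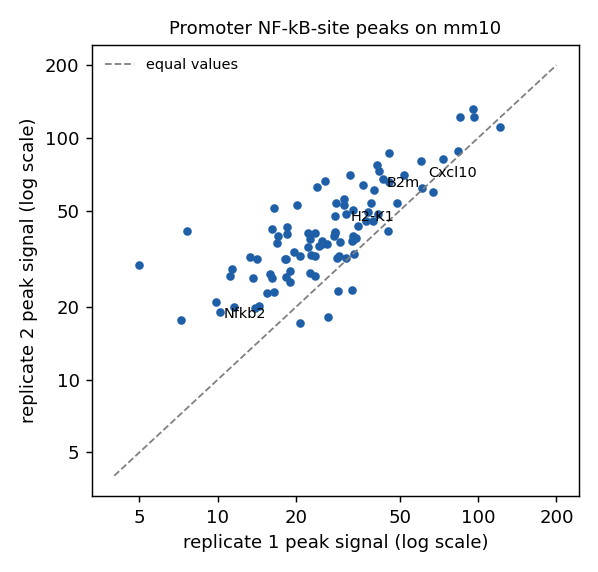
Peak signal in replicate 2 (vertical log axis) against replicate 1 (horizontal log axis) at 93 peaks with an NF-kB site. These peaks could be placed by sequence on GRCm38 promoters and had a peak in both replicates, and some were not promoter peaks on mm9. The dashed line marks equal values. Most points, 85 of 93, lie above the line.

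Genes with an NF-kB-site peak within 10 kb of a start numbered 975 of 22208 protein-coding genes, or 4.39%, while 37.9% had a peak of any kind and 11.6% of those had one with the site. Against this background, 27 of the 80 genes in the 5 lists of NF-kB and B-cell genes had a peak with the site (33.8%), and 65 had any peak (81.2%), of which 41.5% had one with the site. Genes of these lists with a peak had 3.62 peaks each, against 1.84 over all genes with a peak. In all, 227 peaks lay within 10 kb of them, of which 41 held the site, or 18.1%, while over all 12178 peaks within 10 kb of a protein-coding start the share was 7.07%. The lists were put together with earlier results of these data known, and the counts are a description.

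**Figure D5:**
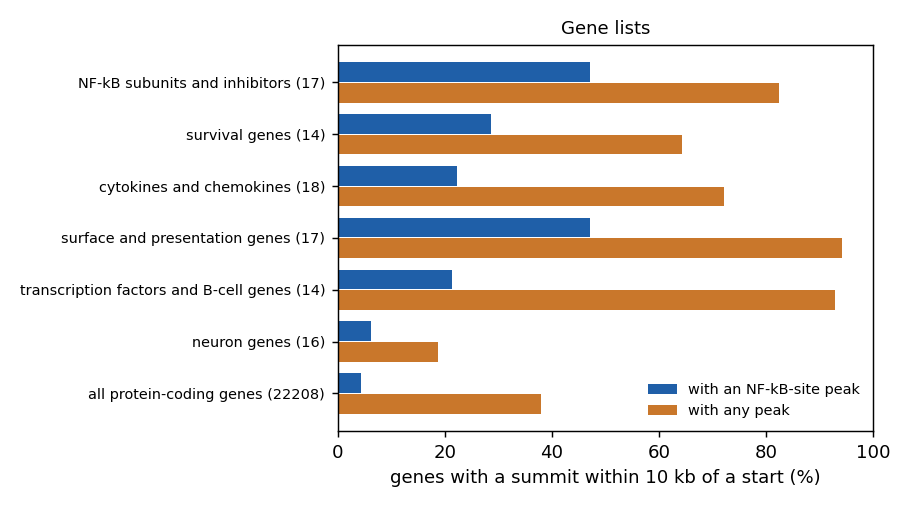
Percent of genes with a summit within 10 kb of a start (horizontal axis) for each gene list (vertical axis, number of genes in brackets): upper bars, genes with a peak holding an NF-kB site, lower bars, genes with any peak. The share with the site was 47.1% for the NF-kB subunits and inhibitors, 6.25% for the neuron genes and 4.39% for all protein-coding genes. The share with any peak was 82.4%, 18.8% and 37.9% in the same order. Among genes with any peak, the share with the site was 57.1%, 33.3% and 11.6%, the neuron value resting on 3 genes.

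Genes of the pathway itself included Nfkb1, the p105 and p50 subunit, which had a promoter peak of 179 with the site 15.5 bp from the summit, and the noncanonical subunit gene Nfkb2, with 70.5 at its start. Of 17 such genes, 14 had a peak within 10 kb of a start and 8 had one with the site there. These were Nfkb1, Nfkb2, the IkB family genes Nfkbia, Nfkbie, Nfkbiz and Bcl3, and Tnfaip3 and Tnip1. Tnfaip3 and Tnip1 encode the ubiquitin-editing protein A20 and its partner. A peak of 341 with 3 sites, in an intron, was nearest to the subunit gene Rel. It lay 16504 bp from a start, so it was not counted. Tnfaip3 had a promoter peak of 159, in an intron and 547 bp from 1 of its starts. Nfkbiz had a promoter peak of 99.8, Bcl3 an intronic peak of 162 and Nfkbie an intronic peak of 79.1. Tnip1 had a peak of 165 at 9633 bp from a start and Nfkbia one of 116 at 8082 bp. Weaker peaks with a site lay within 1 kb of a start of Tnip1 (89.7), Nfkbia (56.4) and Nfkbie (48.5). A second promoter peak of Tnfaip3 with a site, of 137 and 18 bp from another of its starts, was placed on mm10 by sequence and had 38.9 and 53.9 in replicates 1 and 2. The Nfkb2 peak, placed the same way, had 9.88 and 21.0 and was not in the conservative list. The strongest mm10 peak within 1 kb of the Nfkb1 start had 48.0 and 57.3 in replicates 1 and 2.

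Within 10 kb of a start, survival genes had a peak of any kind in 9 of 14 and a site peak in 4. Traf2, an adaptor of TNF receptor signalling, had the highest of these at 178. It was followed by Bcl2l1, which encodes Bcl-xL (78.3), Birc3, an inhibitor of apoptosis (77.1), and Gadd45b, a stress response gene (49.9). A stronger peak with the site, of 517, lay in an intron, 146594 bp from a start of Bcl2. Bcl2 is on the list, but this peak was beyond 10 kb. By the same limit, cytokines and chemokines had a peak of any kind in 13 of 18 and a site peak in 4. These were the chemokines Ccl22 (164) and Cxcl10 (161), Il1b (101) and Il10 (55.4). The Cxcl10 peak lay 146 bp from the start, inside an intron of the overlapping gene Art3, and had 60.5 and 80.4 in replicates 1 and 2 on mm10.

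Surface and antigen presentation genes had a peak of any kind within 10 kb of a start in 16 of 17 and a site peak there in 8. After Cd74 came the B-cell chemokine receptor Cxcr5 with 331, H2-K1 with 223, and the receptor Cd40, with 164 at its promoter; B2m, the light chain of class I molecules, had 127, and Cd86, Cd80 and Cd83, costimulatory or activation molecules, had 127, 87.5 and 58.0. On mm10 the peaks of B2m and H2-K1, placed by sequence, had 41.8 and 72.8, and 30.5 and 52.8, in replicates 1 and 2. The Cd40 peak was not placed by sequence. The strongest mm10 peak within 1 kb of the Cd40 start had 64.1 and 57.9. Cd40 had a second promoter peak with a site on mm9, of 131.

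Of 14 transcription factors and B-cell genes, 13 had a peak of any kind within 10 kb of a start and 3 had a site peak there. Igkc, the kappa light chain constant segment, had a peak of 258 with GGGACTTTCC 0.5 bp from its summit and 676 bp upstream, at the known intronic enhancer whose window is printed with the other sequences. Junb, an AP-1 subunit, had a peak of 379, 7269 bp away and nearer to Hook2, and Pou2f2, the octamer-binding factor Oct-2, had one of 93.1 at its promoter. In the neuron genes, which served as a contrast, 3 of 16 had a peak and 1 had one with the site, Gad1, the glutamate decarboxylase of inhibitory neurons, with 57.4.

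Some genes held several peaks with a site between 10 kb upstream and 10 kb downstream. Gm20388, a gene model of 4434882 bp, had 11 of its 96 peaks with the site. Bcl2, the apoptosis inhibitor, had 6 of 20, and Etv6, an ETS repressor, 5 of 15. AF064781 had 4 of 10 and Akap2, an anchoring protein, 4 of 6; they tie at 4 with other genes, 12 genes having 4 or more. Of these ties, Ebf1 had 4 of 39. The genes were picked for high counts, and over the whole list 7.02% of peaks held the site. Per 100 kb, Gm20388 had 0.247 peaks with the site, Bcl2 had 3.06 and Grap, also tied at 4, had 10.1.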

How the data were processed

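The samples were 2 biological replicates of IRF4 ChIP-seq, numbered by the labels. Per the deposited file descriptions, the mm9 list was made by combining the mm9 alignments of the 2 replicates, and no control file is listed for it; the lists of each replicate and the conservative list, thresholded by the irreproducible discovery rate, are on mm10. No source used here names the caller or aligner. Each peak's signal value was set by the authors' caller on a scale not stated in the deposited lists, and was used to rank peaks within a list. The sites were searched in the mm9 reference sequence, 50 bp to each side of the summit; gene starts came from GENCODE on mm9 and from RefSeq genes of GRCm38, matched by gene, and coordinates were never converted. Shares have 95% Wilson intervals, odds ratios 95% intervals; Fisher's exact and exact McNemar tests were two-sided, and Mantel-Haenszel odds ratios were taken over 10 classes of GC content, with Benjamini-Hochberg adjustment within a family where stated and a threshold of 0.05. The site search, the stratified odds ratios and the exact tests were tested on simulated data. The peaks, the gene lists and the tests were chosen with earlier results of these data known. Genes were named by rule: the gene nearest each of the 10 strongest peaks with the site, the 8 strongest at promoters, the 4 strongest of each list (2 for neurons; the lists give the rest) and the 5 genes with most such peaks. Cd86, Cd80, Cd83, B2m, Nfkb2, Nfkbia, Nfkbie and Nfkbiz were named after their values were seen. A further marker gene is not reported here. Alternatives are described at the end. Coordinates count from 1. Python 3.11.15 was used with scipy 1.17.1 and statsmodels 0.14.6.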

Additional observations from a re-analysis of the deposited data

How the results depend on the processing

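The excess of the site at summits kept its direction and its side of the threshold under all 7 alternatives, with ratios of 3.09 to 6.57. The odds ratio for promoters, 0.951, was 1.03 without the weakest quartile, and passed the threshold at 0.647 with A or T at both free bases, 0.855 at 500 bp from a start and 0.641 within deciles of window GC. The odds ratio for the strongest quartile, 0.929, passed it at 0.829 with 25 bp windows, 0.873 without the weakest quartile and 0.885 without chromosomes 11 and 16, and turned to 1.03 with A or T at both free bases and 1.06 within deciles of window GC. Of the 5 location classes, 2 passed within GC deciles, promoters at 0.641 and introns at 1.24, while intergenic sequence turned to 1.04. The count of motifs past the threshold, 7 of 13, was 8 with all matches, 8 with 100 bp windows and 9 within GC deciles. With all matches the promoter ETS motif turned to 1.05, EBF1 to 2.33, the E-box to 1.03 and Ikaros to 2.87; with 100 bp windows EBF1 turned to 1.00 and the E-box to 1.03. The conservative mm10 comparison gave 1.31 at 500 bp and 2.18 when peaks were placed by sequence, chosen after seeing the data, as was the earlier matching at 2.07. The causes were not tested. Leaving out a replicate was not possible on the mm9 list, which was made from both together. No paired analysis was possible because there is 1 group.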
